A study of Pyrus pyrifolia with 6 samples.

Results

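The genes described here are the WRKY transcription factors of sand pear (Pyrus pyrifolia) fruit pulp, in healthy tissue and in tissue with watercore, a disorder in which the flesh turns translucent and water-soaked. A gene was taken as a member when it is protein coding and its product name in the deposited table contains WRKY, which gave 115 of 38969 genes. RNA was sequenced from 3 healthy and 3 watercore libraries of the cultivar that the labels call Qiurong, with a harvest label of 120D in every library. Disease state is the only labelled difference between the groups. The labels give fruit skin as the organ but pulp in the treatment, and they differ from the methods of the study in the cultivar name, the harvest day, the age of the trees and the extraction reagent. The libraries are described as biological replicates in those methods, but no label ties a library to a fruit or a tree, so that the p-values measure the spread between libraries.

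WRKY proteins are plant transcription factors that bind the W-box, a short DNA motif in the promoters of many stress and defence genes, through a domain with a conserved WRKY peptide and a zinc finger. They are sorted into subfamilies by the number of these domains and the type of zinc finger. Group I proteins carry a pair of domains, and groups IIa to IIe and III carry a single domain. In Arabidopsis, many members are induced within minutes to hours by pathogens, wounding or salicylic acid. Others act in leaf senescence, abscisic acid signalling, heat, drought and phosphate starvation.

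The product names of the 115 genes hold 46 different WRKY numbers. These were taken to follow the numbering of the Arabidopsis genes, and the subfamily was assigned from them here. That placed 18 genes in group I, 6 in IIa, 10 in IIb, 29 in IIc, 13 in IId, 17 in IIe and 16 in III. The other 6 genes are named WRKY19, in Arabidopsis a protein that fuses a WRKY domain to an immune receptor and a kinase. The name was checked against the protein domains listed in the same table, and 100 of the 115 genes hold the Pfam WRKY domain while 15 do not. None of the 6 genes named WRKY19 holds it. LOC103957517, placed in IIc as WRKY51, also holds the Pfam domain PF10533, which the other members hold only in group IId. The methods of the study name the genome of Pyrus betulifolia, whereas the table lists LOC identifiers on NW scaffolds, and the build behind these positions was not given in the sources used here. Members lie on 85 scaffolds.

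The libraries held 14382020 to 15290688 counts each. Across genes, log2 CPM (counts scaled to library size) had a Pearson's r of 0.978 to 0.982 between libraries of a group and 0.849 to 0.87 between the groups. Markers of other tissues that a pulp sample could hold were summed in the same libraries, and those of seed storage and of vascular and stone cells differed between the groups without overlap. The summed CPM of seed storage proteins was between 229 and 277 in healthy libraries and between 1758 and 1914 in watercore libraries, with 13 of 31 listed genes at 0 in every library. For laccases and other genes of vascular and stone cells the ranges were 4.21 to 7.2 and 127 to 230, with 23 of 62 at 0. For skin and cuticle genes they were 119 to 131 and 123 to 131, with 40 of 73 at 0. For photosynthesis genes they were 1515 to 1622 and 1394 to 1532, with 6 of 68 at 0. The part of these tissues in the WRKY values was not tested, and in bulk RNA a change in the number of cells of a type cannot be told apart from a change in RNA per cell.

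The summed level of the WRKY genes was higher in every watercore library. The FPKM (fragments scaled to transcript length and library size, a level that can be compared between genes) of all 115 members summed to 265, 258 and 273 in the healthy libraries and to 562, 552 and 538 in the watercore libraries. The groups did not overlap, and the mean sum was 2.07 times as high in watercore pulp. Much of the difference came from a few members. Mean FPKM went from 14.7 to 58.5 for LOC103949253, from 0.627 to 37.4 for LOC103962153 and from 8.18 to 30.3 for LOC103961289. It went from 31 to 53 for LOC103945078 and from 13.8 to 33.2 for LOC103950466. Some abundant members were lower, such as LOC103955978, from 13.9 to 9.46. There were 27 members that had a mean of at least 1 FPKM in healthy pulp and 47 in watercore pulp. The 5 most abundant members held 39.3% of the summed FPKM in healthy and 38.6% in watercore pulp. In healthy pulp the most abundant was a WRKY14 gene, LOC103945078, with 11.7% of the sum, and in watercore pulp a WRKY31 gene, LOC103949253, with 10.6%.

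Of the 115 members, 25 had no count in any library, 90 had at least 1 count, and 51 passed the filter on low counts and were tested. A gene was called when its absolute log2 fold change was at least 1 with an adjusted p under 0.05 in edgeR's quasi-likelihood test with Benjamini-Hochberg adjustment over all genes. Of the 51 tested members, 31 were called higher in watercore pulp, beside 17.6% of all 21200 genes tested. No member was called lower, beside 7.54% of all genes. At an unadjusted p under 0.05, 3 members were below 0, none of them by the fold threshold. Over all 21200 tested genes, 6889 were below 0 at this p, 1635 of them by the fold threshold. DESeq2 also called 0 members lower, beside 1605 of the 27175 genes it tested. The median log2 fold change was 1.88 over the tested members and 0.00 over all tested genes, and it was 0.83 over the 32 members left by a filter of at least 10 counts in every library. Among the 20 tested members that were not called, 7 were above 0 with an adjusted p under 0.05 but short of the fold, 3 were below 0 with an adjusted p under 0.05, and 10 had an adjusted p of 0.05 or more. With called genes included, 38 of the 51 tested members were above 0 and 3 below 0 at an adjusted p under 0.05 in edgeR. Over all 21200 tested genes these counts were 6840 and 6435.

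The filter lets in genes that are counted only in diseased pulp, and such genes had to differ. Of the 51 tested members, 19 had fewer than 10 counts in a healthy library, and 17 of these were called. The other 32 members had at least 10 counts in each healthy library, and 14 of them (43.8%) were called higher, beside 10.7% of all genes with as many healthy counts. Of the 32 members, 28 hold the WRKY domain, and 11 of those (39.3%) were called. Over the 90 members with any count, the 3 watercore libraries all lay above the 3 healthy libraries in 56 (62.2%), beside 30.7% of all genes with any count. They all lay below in 3 members (3.33%), beside 25.3%. A further measure was silence in healthy pulp: 18 members (20%) had 0 counts in all healthy libraries and at least 1 count in each watercore library, beside 3.54% of all genes. The reverse was seen in 0 members, beside 121 of the 30138 genes with any count, a share too low for 0 members to stand out.

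**Figure D1:**
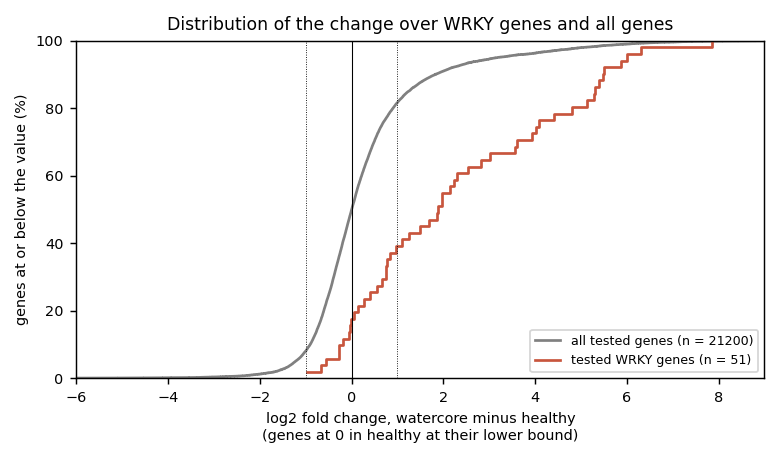
Cumulative percentage of genes (vertical axis) at or below a given log2 fold change, watercore minus healthy (horizontal axis), for the 51 tested WRKY genes and all 21200 tested genes, with dotted lines at the fold threshold. The WRKY curve lies to the right of that for all genes, with medians of 1.88 and 0.00, and the WRKY median was 0.83 under a filter of at least 10 counts in every library.

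The ratio of the summed level in watercore to that in healthy pulp varied between subfamilies. Group III had 2.22, 2.79 and 1.46 summed FPKM in the healthy libraries and 19.8, 15.3 and 16.4 in the watercore libraries, a ratio of 7.94. Groups IIb and IIa had ratios of 4.57 and 4.2. The value of group IIa rests on LOC103941164, a gene without the WRKY domain that held 6.65 of its 7.61 FPKM in healthy pulp. Over the 5 members of IIa with the domain, an alternative chosen after seeing the data, the sums were 1.16, 0.895 and 0.816 FPKM in healthy and 19.4, 17 and 16.4 FPKM in watercore libraries, a ratio of 18.4, beside 7.88 for the members of group III with the domain. The ratios of the other groups were 2.14 for IId, 1.81 for IIc, 1.75 for I and 1.64 for IIe. Group I had the highest summed level in both conditions, with 107 ± 0.908 FPKM in healthy and 186 ± 3.19 FPKM in watercore pulp (SD, n = 3). Without its WRKY33 gene the ratio of group I was 1.4. In CPM, which is not divided by gene length, the ratio of group IIa was 3.03 and that of group III 8.98. No test was made between subfamilies.

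**Figure D2:**
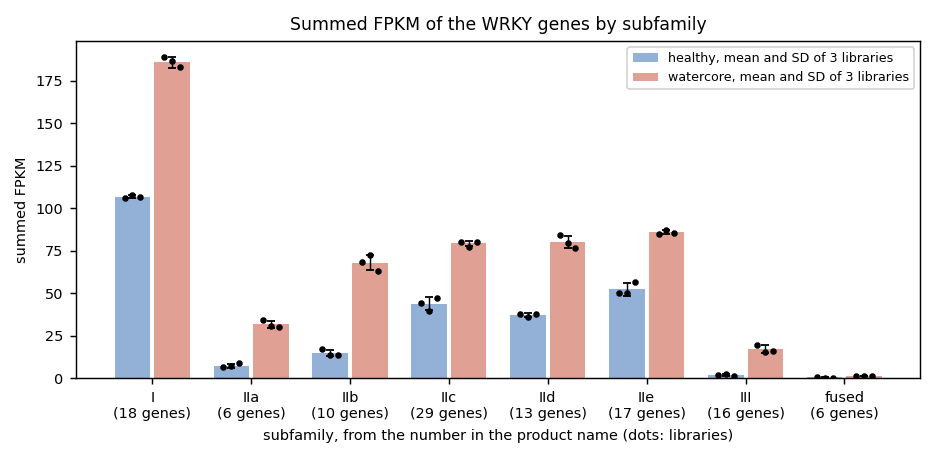
Summed FPKM of the WRKY genes of each subfamily in healthy and watercore pulp, as bars with the mean and SD of 3 libraries and dots for single libraries. In every subfamily the 3 watercore sums lie above the 3 healthy sums, with ratios of 7.94 in group III and 4.2 in group IIa, which becomes 18.4 without the IIa gene that lacks the WRKY domain.

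Group I held both some of the largest changes and many abundant members that were not called. Of its 18 genes, 14 were tested and 4 were called, namely 1 named WRKY33 and 3 of the 4 named WRKY26. In Arabidopsis, WRKY33 is needed for resistance to necrotrophic fungi and is phosphorylated by the stress kinases MPK3 and MPK6, and WRKY26 acts with WRKY25 and WRKY33 in the response to heat. The WRKY33 gene (LOC103962153, NW_008988261.1 from 155266 to 157581) had 0.811, 0.558 and 0.512 FPKM in the healthy libraries and 37.9, 34.3 and 40.1 FPKM in the watercore libraries. The groups lay far apart, and the log2 fold change was 5.88 ± 0.15 (SE; edgeR, adjusted p = 5.9e-08). From a barely detected gene in healthy pulp it became the third most abundant WRKY gene of watercore pulp, at 6.8% of the summed FPKM.

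The WRKY26 gene LOC103945640 (NW_008988040.1 from 1616037 to 1619121) had 1.09, 0.902 and 1.73 FPKM in healthy and 20.1, 19.4 and 18 FPKM in watercore libraries. Every watercore library stood above every healthy library, with a log2 fold change of 3.94 ± 0.19 (SE; edgeR, adjusted p = 7.8e-07). LOC103958932, another WRKY26 gene, had 4, 3 and 3 counts in healthy and 126, 215 and 129 counts in watercore libraries. Watercore library 2 was the highest, and the log2 fold change was 5.50 ± 0.36 (SE; edgeR, adjusted p = 3.7e-06). The remaining called copy, LOC103934216, was nearly silent in healthy pulp, with 0, 0 and 1 counts, and had 104, 114 and 101 counts in watercore pulp. Its single healthy count gives a ratio of 317, with an exact 95% interval of 56.5 to 12551 that covers counting error only. That count came from healthy library 3, and the fitted log2 fold change of 7.85 became 9.74 without that library. Healthy pulp then had only counts of 0, so that 9.74 is not a measured size. The fourth copy, LOC103934039, had 2.93 ± 0.652 FPKM in healthy and 5.29 ± 0.978 FPKM in watercore pulp (SD, n = 3), short of the fold threshold at a log2 fold change of 0.84 (edgeR, adjusted p = 0.00486).

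The other tested members of group I were not called. Of these, LOC103926537 (WRKY44) and LOC103931202 (WRKY20) had low counts and uncertain log2 fold changes of 0.96 ± 0.42 and −0.97 ± 0.72 (SE; edgeR, adjusted p = 0.0732 and 0.266). A WRKY3 gene, LOC103951028, had 16.4, 16 and 17.8 FPKM in healthy and 28.3, 28.9 and 29.4 FPKM in watercore libraries. The groups did not overlap, but the log2 fold change of 0.77 ± 0.07 (SE; edgeR, adjusted p = 1.7e-05) was short of the threshold. Its namesake LOC103947214 had 18, 21.4 and 17.9 FPKM in healthy and 19.6, 19 and 17.9 FPKM in watercore libraries. Here the groups overlapped, at a log2 fold change of −0.04 ± 0.09 (SE; edgeR, adjusted p = 0.742). WRKY3 takes part, with WRKY4, in resistance to necrotrophic fungi in Arabidopsis.

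The gene that the table gives the symbol WRKY7 but the product name WRKY2 had 11.4, 12.9 and 11 FPKM in healthy and 19.1, 20 and 17.4 FPKM in watercore libraries. All watercore libraries were higher, with a log2 fold change of 0.67 ± 0.08 (SE; edgeR, adjusted p = 1.4e-04). In Arabidopsis WRKY2 acts in pollen development and in the arrest of seed germination by abscisic acid. Both WRKY32 genes went the other way. LOC103955978 had 15.2, 13.5 and 12.9 FPKM in healthy and 11, 7.78 and 9.57 FPKM in watercore libraries, with no overlap. Its log2 fold change was −0.56 ± 0.14 (SE; edgeR, adjusted p = 0.00565), and that of LOC103949072 was −0.26 ± 0.10 (SE; edgeR, adjusted p = 0.0474), from 18.1 ± 1.63 to 15.3 ± 1.56 FPKM (SD, n = 3). The groups of LOC103949072 overlapped, with 19.8, 18.1 and 16.5 FPKM in healthy and 14.6, 17 and 14.1 FPKM in watercore libraries.

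Group IIa is the subfamily of WRKY18, WRKY40 and WRKY60, which in Arabidopsis restrain basal defence and take part in abscisic acid signalling. All 5 of its tested genes were called higher, and the other member, LOC103938975, had 1 count in a single watercore library. A WRKY18 gene, LOC103953687, and a WRKY40 gene, LOC103953663, stand next to each other on NW_008988041.1, from 2826818 to 2828630 and from 2831846 to 2834168, with 3215 bases between them. WRKY18 had 0 counts in the healthy libraries and 21, 12 and 16 counts in the watercore libraries. With the healthy group set to 3 counts in total, it was at least 16.2-fold higher (edgeR, adjusted p = 4.6e-04). The neighbouring WRKY40 gene had 1, 0 and 2 counts in healthy and 107, 102 and 61 counts in watercore libraries, a ratio of 89.4 with an exact 95% interval of 30.3 to 436. Its fitted log2 fold change of 6.31 became 7.18 without healthy library 3.

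LOC103938977, also named WRKY40, had 0.174, 0.172 and 0 FPKM in healthy and 8.63, 7.33 and 7.58 FPKM in watercore libraries. The watercore libraries lay close together and far above the healthy ones, with a log2 fold change of 5.99 ± 0.43 (SE; edgeR, adjusted p = 5.3e-06). LOC103945359, a further WRKY40 gene, was already present in healthy pulp, with 0.94, 0.723 and 0.722 FPKM, and had 4.8, 4.21 and 5.07 FPKM in watercore libraries. All watercore libraries were above all healthy ones, with a log2 fold change of 2.54 ± 0.20 (SE; edgeR, adjusted p = 1.1e-05). The last gene named WRKY40, LOC103941164, holds no WRKY domain in the table, where its domains include an AAA ATPase domain. It was the called member with the smallest change, from 6.65 ± 1.34 to 14.3 ± 0.388 FPKM (SD, n = 3) at a log2 fold change of 1.10, and the call was lost without healthy library 1, where the log2 fold change was 0.97. With offsets for gene length it was 0.73.

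In group IIb, 3 of 10 genes were tested and all 3 were called higher. A WRKY31 gene, LOC103949253 (NW_008988039.1 from 760315 to 763101), had 17.1, 13.7 and 13.4 FPKM in healthy and 58.3, 62.8 and 54.5 FPKM in watercore libraries. The lowest watercore library was well above the highest healthy library, and the log2 fold change was 1.98 ± 0.10 (SE; edgeR, adjusted p = 9.9e-07). WRKY31 is a close relative of WRKY6, which acts in senescence, defence and phosphate starvation in Arabidopsis. A second WRKY31 gene, LOC103948202, had only 0.0667, 0.231 and 0.277 FPKM in healthy but 8.58, 8.97 and 7.17 FPKM in watercore libraries. This copy changed far more in proportion, with a log2 fold change of 5.39 ± 0.30 (SE; edgeR, adjusted p = 1.7e-06), while its watercore level stayed below the healthy level of the first copy. WRKY61, LOC103958748, had 0 counts in healthy and 53, 24 and 43 counts in watercore libraries, at least 39.7-fold higher (edgeR, adjusted p = 1.4e-04). It is related to WRKY72, which takes part in basal immunity in tomato and Arabidopsis.

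Group IIc is the largest group and the most divided. Of its 29 genes, 11 had no count in any library, 8 were tested and 4 were called higher. A WRKY48 gene, LOC103961289, had 9.23, 8.09 and 7.22 FPKM in healthy and 31, 32 and 27.9 FPKM in watercore libraries. The groups were clearly separate, with a log2 fold change of 1.88 ± 0.11 (SE; edgeR, adjusted p = 1.8e-06). WRKY48 represses basal defence against bacteria in Arabidopsis. A WRKY75 gene, LOC103935109, had 3.11, 2.97 and 2.61 FPKM in healthy and 12.5, 15.1 and 15.3 FPKM in watercore libraries. It was higher in all watercore libraries, with a log2 fold change of 2.29 ± 0.15 (SE; edgeR, adjusted p = 3.0e-06). In Arabidopsis WRKY75 acts in phosphate acquisition and promotes leaf senescence.

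WRKY50, LOC103952502, had 0 counts in healthy and 36, 23 and 25 counts in watercore libraries, at least 27.8-fold higher (edgeR, adjusted p = 1.3e-04). In Arabidopsis it binds the promoter of PR1, a marker gene of salicylic acid responses. WRKY71, LOC103947434, had 1, 4 and 2 counts in healthy and 19, 53 and 17 counts in watercore libraries. Watercore library 2 stood far above the other two, and the log2 fold change of 3.60 ± 0.68 (SE; edgeR, adjusted p = 0.00148) was 2.87 without it. Its Arabidopsis namesake promotes shoot branching. The tested genes of group IIc that were not called include WRKY43, LOC108867468, a short gene with 18, 15.2 and 25.1 FPKM in healthy and 16.8, 13.6 and 18.6 FPKM in watercore libraries. The groups overlapped, at a log2 fold change of −0.26 ± 0.20 (SE; edgeR, adjusted p = 0.28). WRKY51, LOC103957517, chosen after its values were seen, had 10.5, 10 and 7.84 FPKM in healthy and 7.4, 4.22 and 6.49 FPKM in watercore libraries. It was the third member with an adjusted p under 0.05 below 0, at a log2 fold change of −0.65 ± 0.24 (SE; edgeR, adjusted p = 0.041). Its place in group IIc rests on the number alone. Beside the WRKY domain it holds the Pfam domain PF10533, which the other members hold only in group IId.

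Group IId proteins bind calmodulin, and in Arabidopsis WRKY7, WRKY11 and WRKY17 are negative regulators of resistance to bacteria. Of the 13 genes placed here by number, 10 were tested and 8 were called higher, and the exceptions were both genes named WRKY21. LOC103957517, placed in IIc by its number, holds the domain PF10533 as the IId members with a WRKY domain do. Its log2 fold change was −0.65. The most abundant called gene was a WRKY7 gene, LOC103950466, with 13.1, 12.9 and 15.2 FPKM in healthy and 34.9, 34.6 and 30.2 FPKM in watercore libraries. The groups were separate by a wide margin, with a log2 fold change of 1.26 ± 0.09 (SE; edgeR, adjusted p = 6.4e-06). Another WRKY7 gene, LOC103957105, went from 2.16, 2.85 and 2.57 FPKM to 7.19, 6.11 and 8.32 FPKM. It rose by a log2 fold change of 1.50 ± 0.18 (SE; edgeR, adjusted p = 1.3e-04), again with no overlap.

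All 4 genes named WRKY17 were called higher, at low levels. LOC103957537 had 13, 13 and 5 counts in healthy and 138, 114 and 123 counts in watercore libraries. LOC103953589 had 1, 3 and 1 counts in healthy and 86, 57 and 47 counts in watercore libraries. Both were far apart between the groups, with log2 fold changes of 3.57 ± 0.30 and 5.13 ± 0.46 (SE; edgeR, adjusted p = 1.4e-05 and 2.0e-05), and the second was 5.79 without healthy library 2. The other pair of WRKY17 genes lies on the same scaffold, NW_008988065.1, with 271028 bases between them. LOC103944562 had 13, 10 and 10 counts in healthy and 66, 42 and 50 counts in watercore libraries, and LOC103944586 had 30, 12 and 23 counts and 72, 77 and 64 counts. Neither overlapped, with log2 fold changes of 2.23 ± 0.29 and 1.70 ± 0.33 (SE; edgeR, adjusted p = 1.8e-04 and 0.00166).

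WRKY15, LOC103961588, had 5, 3 and 10 counts in healthy and 60, 44 and 28 counts in watercore libraries. The watercore libraries varied but all lay above the healthy ones, and the log2 fold change of 2.83 ± 0.47 (SE; edgeR, adjusted p = 7.3e-04) was 3.42 without healthy library 3. WRKY15 acts in osmotic and salt stress in Arabidopsis. The gene named WRKY11, LOC103950478, holds a peptidase domain and no WRKY domain in the table, and it went from 0.676 ± 0.092 to 2.51 ± 0.299 FPKM (SD, n = 3; log2 fold change 1.87, edgeR, adjusted p = 1.2e-04). Of the WRKY21 genes, LOC103946010 had 12.1 ± 0.782 and 13.5 ± 0.759 FPKM and LOC103957309 had 5.62 ± 0.859 and 5.91 ± 0.215 FPKM in healthy and watercore pulp (SD, n = 3). The former lay higher in every watercore library, while the latter overlapped, at log2 fold changes of 0.14 ± 0.10 and 0.06 ± 0.14 (SE; edgeR, adjusted p = 0.22 and 0.731).

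Group IIe held the most abundant WRKY gene of healthy pulp and few large changes. Of its 17 genes, 6 had no count in any library, 6 were tested and 2 were called higher. The WRKY14 gene LOC103945078 (NW_008988069.1 from 266160 to 272205) had 29, 30.7 and 33.3 FPKM in healthy and 50.9, 52.9 and 55.2 FPKM in watercore libraries. Every watercore library was higher, yet the log2 fold change of 0.76 ± 0.07 (SE; edgeR, adjusted p = 1.7e-05) was short of the threshold. WRKY35, LOC103938336, had 11.7, 10.4 and 12 FPKM in healthy and 20.4, 19.4 and 18 FPKM in watercore libraries. It was likewise separate but short of the fold, at a log2 fold change of 0.75 ± 0.10 (SE; edgeR, adjusted p = 2.6e-04), and with offsets for gene length it passed at 1.01. The called genes of the group were WRKY22 and WRKY65. WRKY22, LOC103933178, had 0 counts in healthy and 14, 15 and 22 counts in watercore libraries, at least 16.9-fold higher (edgeR, adjusted p = 4.4e-04). In Arabidopsis WRKY22 lies downstream of the MAP kinase cascade that answers bacterial flagellin. WRKY65, LOC103943079, had 9, 0 and 4 counts in healthy and 37, 41 and 31 counts in watercore libraries. No library overlapped, and the log2 fold change of 3.02 ± 0.64 (SE; edgeR, adjusted p = 0.00282) was 4.08 without healthy library 1.

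Group III was nearly silent in healthy pulp. Of its 16 genes, 4 were tested, all 4 were called higher, and 4 had no count in any library. In Arabidopsis WRKY53 promotes leaf senescence, and WRKY70 activates salicylic acid responses, represses jasmonic acid responses and delays senescence. WRKY70 LOC103952818 was the only tested gene of the group with more than 10 counts in each healthy library, with 2.11, 2.41 and 1.32 FPKM in healthy and 9.31, 6.62 and 7.22 FPKM in watercore libraries. The groups did not overlap, at a log2 fold change of 1.97 ± 0.25 (SE; edgeR, adjusted p = 1.5e-04). The other tested WRKY70 gene, LOC103953732, had 0, 0 and 3 counts in healthy and 65, 42 and 45 counts in watercore libraries, a ratio of 50.3 with an exact 95% interval of 16.9 to 247. All 3 healthy counts came from healthy library 3, and the fitted log2 fold change of 5.48 was 8.67 without it. Only counts of 0 were then left in healthy pulp, so that 8.67 is not a measured size.

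A WRKY53 gene, LOC103943771, had 3, 7 and 0 counts in healthy and 138, 120 and 145 counts in watercore libraries. The groups were far apart, with a log2 fold change of 5.28 ± 0.51 (SE; edgeR, adjusted p = 2.9e-05), or 6.35 without healthy library 2. The second tested WRKY53 gene, LOC103958164, had 0 counts in healthy and 27, 20 and 17 counts in watercore libraries, at least 21.2-fold higher (edgeR, adjusted p = 2.3e-04). Each WRKY70 gene that was called stands next to a WRKY55 gene that was not tested. LOC103952822 lies 555 bases after LOC103952818 and had 0, 2 and 0 counts in healthy and 3, 4 and 1 counts in watercore libraries. LOC103953821 lies 636 bases after LOC103953732 and had 0 counts in healthy and 2, 1 and 0 counts in watercore libraries, so that both stayed near the limit of detection beside a called neighbour.

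Of the genes named WRKY19, none with a WRKY domain, 1 was tested. LOC103960388 had 26, 28 and 29 counts in healthy and 120, 131 and 119 counts in watercore libraries. It was higher in every watercore library, with a log2 fold change of 2.14 ± 0.19 (SE; edgeR, adjusted p = 1.7e-05). Its listed length of 7199 bases exceeds its position from 530281 to 531898. The same holds for LOC103941164 (3842 bases, from 67892 to 70252) and LOC103950478 (2303 bases, from 761441 to 762967). The reason is not known, so that their names and FPKM are uncertain. Another gene named WRKY19, LOC108865997, was the only member below the filter with fewer counts in watercore pulp. It had 14, 7 and 4 counts in healthy and 1, 1 and 4 counts in watercore libraries. The entry LOC108865996 has the same product name and length on the same scaffold, but the sequences were not compared. How reads were divided between such entries is not known. Both list the Pfam domain PF01490 and no other.

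**Figure D3:**
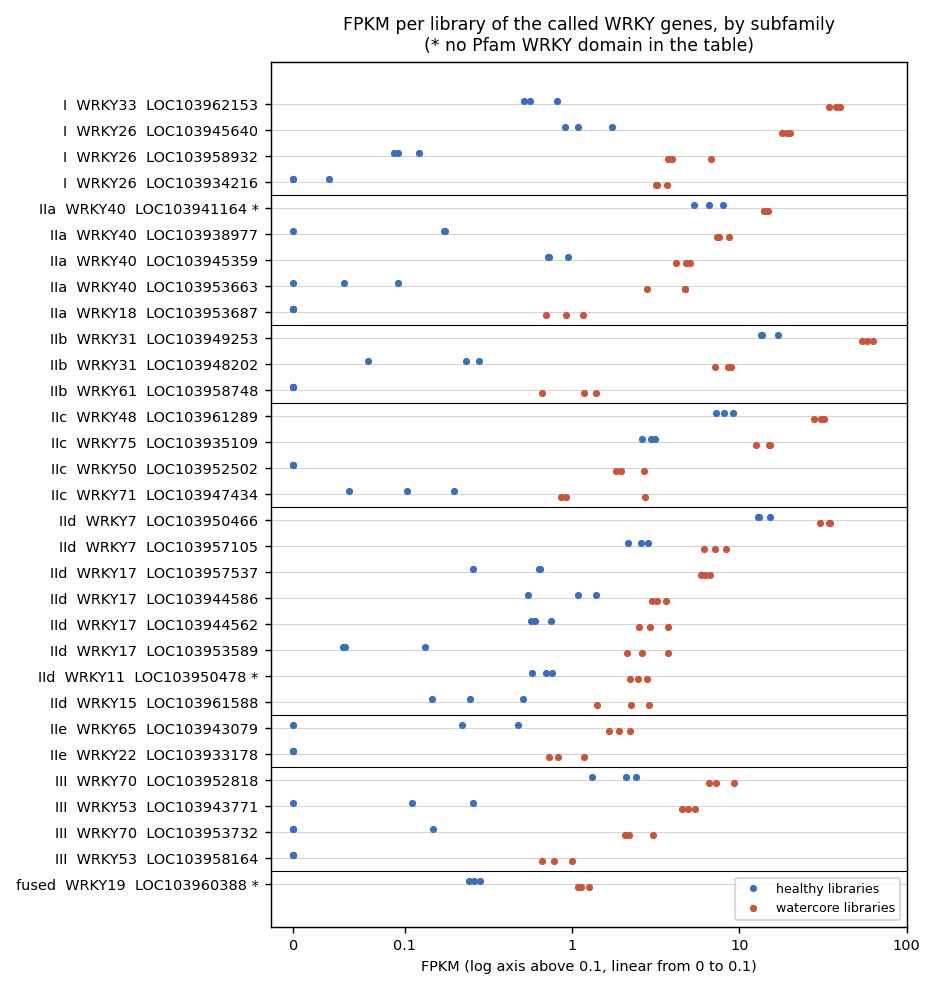
FPKM of the 31 called WRKY genes in each of the 3 healthy and 3 watercore libraries, grouped by subfamily, on an axis that is linear from 0 to 0.1 and logarithmic above. For all 31 genes the watercore points lie to the right of the healthy points, and 5 genes have all healthy points at 0.

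**Figure D4:**
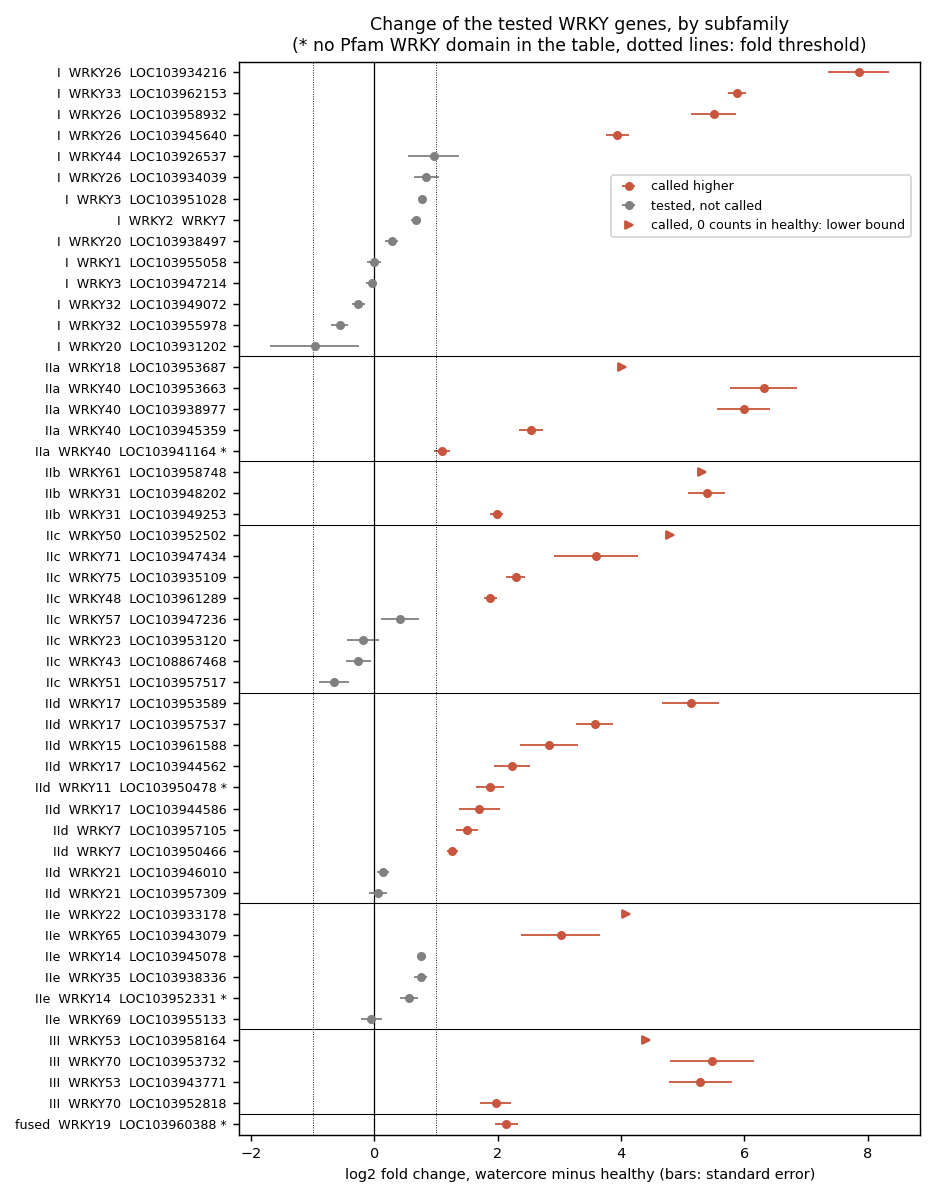
Log2 fold change, watercore minus healthy, of the 51 tested WRKY genes, by subfamily, with bars for the standard error and arrowheads for lower bounds where healthy pulp had 0 counts. Among genes with at least 10 counts in every healthy library, 2 of 10 in group I, 2 of 2 in IIa, 1 of 1 in IIb, 2 of 6 in IIc, 5 of 7 in IId, 0 of 4 in IIe, 1 of 1 in III and 1 of 1 named WRKY19 were called, and the other tested genes could pass the filter through watercore pulp.

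The genes of 1 number did not always move together. Of the numbers with several tested genes, WRKY17 and WRKY40 had all 4 called, and WRKY7, WRKY31, WRKY53 and WRKY70 had both called. WRKY26 had 3 of 4 called, with log2 fold changes from 0.84 to 7.85. The 2 genes of WRKY3, of WRKY14, of WRKY20, of WRKY21 and of WRKY32 were all tested and not called in either copy, apart from a further WRKY20 gene that was below the filter. Copies of 1 number differed widely in level: the called WRKY31 genes had 58.5 ± 4.12 and 8.24 ± 0.946 FPKM in watercore pulp (SD, n = 3).

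The 64 members that were not tested were low throughout. Of these, 39 had any count, and no library held more than 26 counts of one of them. They had more counts in watercore than in healthy libraries in 38 cases (97.4%) and fewer in 1 (2.56%), beside 66.9% and 28.4% of the 8938 untested genes with any count. The highest count in a library was that of a WRKY71 gene, LOC103966009, with 0, 2 and 0 counts in healthy and 7, 26 and 5 counts in watercore libraries. Of the 18 members that were silent in all healthy libraries and present in each watercore library, 13 were in this class. Among these, the WRKY53 gene LOC103943461 had 13, 8 and 9 watercore counts, at least 9.93-fold above the floor. The 25 members with no count in any library include all 3 genes of WRKY13, all 3 of WRKY49, the only WRKY12 gene and 3 of the 4 genes each of WRKY22, WRKY24 and WRKY27. In Arabidopsis WRKY12 and WRKY13 regulate secondary wall formation and flowering time. A count of 0 allows a level of up to 3 counts over a group.

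Genes that work with WRKY factors in signalling were taken by product name. As for the members, the filter lets in listed genes that are counted only in watercore pulp, and such genes had to differ. Shares among listed genes with at least 10 counts in every healthy library were not computed. The called shares and medians of all lists below therefore carry this limit. MAP kinases phosphorylate WRKY proteins, and the kinases that activate MAP kinases were listed with them. Of these 68 genes 50 were tested, 12 called higher (24%) and 2 called lower (4%), beside 17.6% and 7.54% of all tested genes. The median log2 fold change was 0.14. The largest change was in MPK3, LOC103948905, a kinase that phosphorylates WRKY33 in Arabidopsis, with 0.605, 0.319 and 0.293 FPKM in healthy and 7.5, 7.56 and 5.76 FPKM in watercore libraries. The groups were separate, with a log2 fold change of 4.06 ± 0.28 (SE; edgeR, adjusted p = 4.8e-06). The most abundant gene of the list, the MPK3-like gene LOC103943786, had 295 ± 10.6 and 274 ± 3.6 FPKM in healthy and watercore pulp (SD, n = 3; log2 fold change −0.12, edgeR, adjusted p = 0.0722).

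VQ proteins are short partners that bind WRKY proteins and change their activity. Of 29 genes, 11 were tested, 8 were called higher (72.7%, beside 17.6% of all tested genes) and none lower (beside 7.54%), at a median log2 fold change of 3.61. VQ20, LOC103947124, had 0 counts in healthy and 43, 33 and 52 counts in watercore libraries, at least 42.4-fold higher (edgeR, adjusted p = 6.2e-05). The most abundant VQ gene, the VQ4 gene LOC103938436, had 12.3 ± 1.74 and 12.9 ± 0.847 FPKM (SD, n = 3), at a log2 fold change of 0.06 (edgeR, adjusted p = 0.699).

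Of 90 genes of salicylic acid synthesis and response, 46 were tested, 26 called higher (56.5%) and 2 called lower (4.35%), where 17.6% and 7.54% of all tested genes were, at a median log2 fold change of 1.15. The largest change was in LOC103962297, a relative of the regulators of salicylic acid synthesis CBP60g and SARD1 in Arabidopsis, with 0.0269, 0 and 0.0837 FPKM in healthy and 4.87, 5.13 and 5.27 FPKM in watercore libraries. It was close to silent in healthy pulp, and its log2 fold change was 6.99 ± 0.41 (SE; edgeR, adjusted p = 2.0e-06). SAG101, LOC103928442, a partner of the immune regulator EDS1, was the most abundant gene, with 123 ± 8.58 and 141 ± 9.19 FPKM (SD, n = 3), at a log2 fold change of 0.19 (edgeR, adjusted p = 0.044).

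Pathogenesis-related proteins, products of defence whose promoters often hold W-boxes, counted 67 genes, of which 17 were tested, 10 called higher (58.8%, against 17.6% over all tested genes) and none lower (against 7.54%), at a median log2 fold change of 2.62. Their summed level was 74.6 to 102 CPM in healthy libraries and 370, 1123 and 334 CPM in watercore libraries 1 to 3, so that watercore library 2 stood apart. The most abundant was a thaumatin-like gene, LOC103948476, with 6.3, 13.6 and 5.88 FPKM in healthy and 187, 844 and 168 FPKM in watercore libraries. Its log2 fold change was 5.52 ± 0.74 (SE; edgeR, adjusted p = 2.0e-04). The thaumatin-like gene LOC103962570 had 0, 1 and 0 counts in healthy and 151, 193 and 152 counts in watercore libraries, the largest change of the list. Most of the 31 called WRKY genes did not have their highest FPKM in watercore library 2, and 10 did.

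Among 38 senescence genes, 18 were tested, 7 called higher (38.9%) and 2 called lower (11.1%), with 17.6% and 7.54% over all tested genes, at a median log2 fold change of 0.37. The SAG21 genes, which belong to the late embryogenesis abundant proteins, had both the largest change and the highest level. LOC103940416 had 13.5, 7.44 and 2.07 FPKM in healthy and 409, 565 and 319 FPKM in watercore libraries, with no overlap at a log2 fold change of 5.79 ± 0.42 (SE; edgeR, adjusted p = 6.2e-06). LOC103928387 had 46.2 ± 11.1 and 705 ± 69.7 FPKM (SD, n = 3; log2 fold change 3.92, edgeR, adjusted p = 3.5e-07). Of 11 tested seed storage genes, 5 were called higher (45.5%) and none lower, and of 11 tested vascular and stone cell genes 9 were called higher (81.8%) and 1 lower, beside the same shares over all genes. Among the former was the 11S globulin LOC103946294 with 3.61 ± 1.56 and 487 ± 43.2 FPKM (SD, n = 3). Their part in these values was not tested.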

How the data were processed

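RNA-seq libraries of healthy and watercore pulp (3 each) were compared. The authors mapped reads with HISAT2, by their methods to the genome of Pyrus betulifolia, although the table lists LOC identifiers on NW scaffolds. The HISAT2 version, the counting tool, the build behind the table and the treatment of reads shared by similar genes were not given in the sources used here. For each library the authors deposited counts per gene, without normalization, and FPKM, which scale those counts by gene length and library size. The deposited comparison (group means, log2 fold change, p-value and adjusted p from DESeq2) was not used.

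Members were taken by product name and subfamilies by WRKY number. Members, lists and tests were chosen with earlier results of these data known. Counts of 14382020 to 15290688 per library were fitted over all genes with edgeR 4.0.16 (quasi-likelihood test, TMM, filterByExpr) under R 4.3.3, with Benjamini-Hochberg adjustment, a fold threshold of 1 on the log2 scale and an adjusted p under 0.05. The biological coefficient of variation was 0.143. The standard errors given for edgeR are approximate, namely the absolute log2 fold change divided by the square root of the F statistic. Overlap of groups was judged on TMM-scaled CPM. For genes at 0 in healthy pulp, lower bounds assume 3 counts in that group, and ratios against 1 to 3 counts have an exact 95% interval. Bounds and intervals cover counting error only.

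Alternatives were DESeq2 1.42.0, limma 3.58.1 on log2(FPKM + 1) and log2(FPKM + 0.1), RLE, upper-quartile and total-count scaling, other filters and thresholds, offsets for gene length, a replicate block and each library left out. The main edgeR fit, the replicate block, length offsets, glmTreat, DESeq2 and limma on log2(FPKM + 1) were tested on simulated data. The other scalings, filters and limma settings and the fits with a library left out were not. Values are given for called members (the 30 with the largest change), the 10 members with the highest mean FPKM and, from each list of related genes, the called gene with the largest change and the most abundant gene. LOC103941164, LOC103934039, LOC103955978, WRKY44, WRKY51, LOC103931202, the WRKY21 genes and the members below the filter were named after their values were seen. Tables and plots were made with pandas 2.3.3, numpy 2.4.6, scipy 1.17.1 and matplotlib 3.10.9 under Python 3.11.15.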

Additional observations from a re-analysis of the deposited data

How the results depend on the processing

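The 31 members called higher kept this call under RLE, upper-quartile and total-count scaling, DESeq2, no filter and the replicate block. glmTreat called 29, losing LOC103941164 and LOC103944586, and limma on log2(FPKM + 1) called 27, losing WRKY22, WRKY18, WRKY53 LOC103958164 and LOC103960388. A filter of at least 10 counts in every library left 32 members, of which 14 were called. With each library left out, 31 to 32 members were called higher, and 30 of the 31 calls held throughout. No alternative called a member lower, except that 3 were below 0 with no minimum fold change. The median log2 fold change of the tested members was 2.28 with DESeq2, 2.31 with no filter, 0.83 with at least 10 counts in every library, 0.34 with limma on log2(FPKM + 1), 1.21 with a mean FPKM of at least 1 in addition, 1.70 on log2(FPKM + 0.1), and 1.82 to 2.0 with a library left out. These settings change which genes are tested, and a pseudocount shrinks the change of low genes.

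Over all genes, 2205 were higher and 1047 lower with at least 10 counts in every library, 2463 and 564 with glmTreat, 2313 and 824 with limma on log2(FPKM + 1), 2123 and 817 with the minimum mean, and 6840 and 6435 with no minimum fold change. Members near 0 changed sign, and the cause was not tested: with at least 10 counts in every library LOC103947214 was at 0.03, LOC103955058 at 0.05 and LOC103955133 at 0.02; with length offsets LOC103955133 was at 0.28 and LOC108867468 at 0.13; with RLE LOC103955058 was at 0.00; with a library left out LOC103947214 was at −0.08 to 0.06, LOC103955058 at −0.07 to 0.05, LOC103955133 at −0.16 to 0.07 and LOC103957309 at −0.05 to 0.16. Replicate numbers did not pair the libraries (deviations of libraries with the same number correlated at 0.0369, 0.00271 and −0.00256), and the fit with the replicate block called 31 members higher and 0 lower. Restricting members to those with the Pfam WRKY domain, chosen after seeing the data, left 28 called of 47 tested, at a median of 1.97 and a summed FPKM ratio of 2.07. The planned restriction by protein sequence was not run, because no protein sequences were used here. Depth limits the 39 untested members with counts, of which none exceeded 26 counts.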

Other observations

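The table holds 103 genes with a Pfam WRKY domain, and 3 of them are named otherwise and were therefore not members. LOC103957516, named as a TMV resistance protein N-like gene, holds a TIR domain and PF10533 beside the WRKY domain. It lies from 504588 to 508972 on the same scaffold and strand as the WRKY51 gene LOC103957517, which lies from 501146 to 503438 and also holds PF10533. It had 226, 253 and 275 counts in healthy and 204, 167 and 187 counts in watercore libraries, with no overlap. Its log2 fold change of −0.45 ± 0.12 (SE; edgeR, adjusted p = 0.0115) was short of the fold threshold, and it went in the opposite direction to most members. LOC103947963, named as a disease resistance protein, had a single count in 1 watercore library, and LOC103949291, uncharacterized, had 2, 4 and 0 counts in watercore libraries and none in healthy libraries.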
